A study of Mus musculus with 11 samples.

Results

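The genes described here encode the ligands and receptors of the 4 classical axon guidance systems, namely semaphorins with plexins and neuropilins, ephrins with Eph receptors, Slits with Robo receptors, and netrins with Dcc and Unc5 receptors. They were picked by symbol alone, and 69 of the 16755 genes in the expression table belonged to them, 35 ligands and 34 receptors. Total RNA came from mouse maxillary molar tooth germs at embryonic day 14.5, when the wild-type first molar is at the cap stage. It was sequenced in bulk from 11 libraries on the C57BL/6 background. Wild-type (Cilk1+/+) germs gave 4 libraries. Cilk1-/- germs, also 4 libraries, lacked exon 6 of the ciliary kinase gene Cilk1 after recombination by EIIa-Cre, a Cre that acts in the early embryo and so deletes throughout the body. In Cilk1-/- at that age, the study puts a surviving diastemal tooth germ at the cap stage and the first molar at the bud stage. The part of that difference in the values below was not tested. The 3 compound mutant libraries (Cilk1-/-;PCS1-MRCS1△/△) carried that same Cilk1 deletion and, on both alleles, a deletion of 70 kb that takes out PCS1 and MRCS1, both enhancers of Shh in oral epithelium. The PCS1-MRCS1 deletion alone was not among the groups, so its effect can be read only on the Cilk1-/- background. Each library pooled tissue (n = 6 per biological replicate), and a library is the replicate throughout.

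Guidance ligands attract or repel growing axons by binding receptors on the growth cone, and many of them also act on cells other than neurons. Class 3 semaphorins are secreted and bind neuropilins, which signal through A-type plexins, whereas other semaphorins are tied to the membrane. Ephrins and Eph receptors signal in both directions between touching cells and keep tissue borders sharp. Netrins attract through Dcc and repel through Unc5 receptors, and Slits repel through Robo receptors. In the tooth germ the best-known member is Sema3a, a repellent made by the dental mesenchyme that holds trigeminal axons outside the germ until later stages.

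Levels are given as deposited, on a scale of log2(value + 1), where the value is a length- and depth-normalized expression value, probably FPKM. The table held no read counts, so the depth behind each value is unknown, and a difference on this scale understates the change of a low gene. The targeted gene, listed as Ick, stood at 3.53 ± 0.08 (SD, n = 4) in wild type, 2.80 ± 0.07 (n = 4) in Cilk1-/- and 2.64 ± 0.03 (n = 3) in the compound mutant, with no overlap between wild type and either mutant. All 10 dental epithelium markers and all 10 dental mesenchyme markers were listed at a wild-type mean of 1 or more. Libraries of wild type and Cilk1-/- that carried the same replicate number deviated from their group means in opposite directions, with correlations across all genes from -0.89 to -0.74, and were at exactly 0 in the same 55, 12, 17 and 0 genes. They are therefore not independent samples, and p-values that treat them as such may be too small; the cause of the opposite deviations was not tested. The adjusted p-values below come from limma fitted to all genes and all 11 libraries, and a gene counted as called where its adjusted p was under 0.05 and its difference reached 1.5-fold. Compound mutant replicate 1 also stood apart, as given further on with the markers of other tissues.

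Promoters are shown for the called genes that had an entry in the RefSeq table, Sema7a and Ntn3, since their fall is the base of the comparisons that follow. Each is the 250 bases before the RefSeq start site (GRCm38.p6), written 5′ to 3′ on the gene's strand, and capitals mark the GC box hexamer GGGCGG read on either strand.
Sema7a, plus strand, chr9:57939862-57940111: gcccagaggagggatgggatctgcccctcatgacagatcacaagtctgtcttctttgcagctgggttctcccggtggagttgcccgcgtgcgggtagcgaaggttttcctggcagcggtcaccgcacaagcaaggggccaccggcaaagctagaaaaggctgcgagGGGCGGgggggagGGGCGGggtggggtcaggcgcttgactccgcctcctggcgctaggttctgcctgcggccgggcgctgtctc
Ntn3, minus strand, chr17:24209388-24209637: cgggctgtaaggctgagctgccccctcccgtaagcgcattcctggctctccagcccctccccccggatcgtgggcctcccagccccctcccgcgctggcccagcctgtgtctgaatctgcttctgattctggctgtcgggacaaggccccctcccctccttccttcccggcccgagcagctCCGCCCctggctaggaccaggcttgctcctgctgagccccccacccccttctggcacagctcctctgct
Both windows were rich in G and C, at 66.4% for Sema7a and 69.2% for Ntn3, with 2 and 1 GC boxes. Over windows of 300 bases that reached 50 bases past the start, 53 of the 75 windows of the 59 matched members (70.7%) held the hexamer, against 35.7% of all 32851 windows. The latter came from 27025 genes, not only those of the expression table. The members' windows were also richer in G and C (median 64.3% against 52.7%) and in CpG (median 19 against 7). The motif counts were not adjusted for this base composition. TATAAA, on either strand, was in 2.67% of the members' windows (Slit2 and Efnb2) and in 13.6% of all. The Gli-type sequence GACCACCCA, on either strand, was in 0 of the members' windows and in 0.253% of all windows. With so rare a sequence, 0 among 75 windows is the likely count for any set, so it does not show whether members lack Gli sites.

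Wild-type germs held transcripts of every family, and 61 of the 69 members had a wild-type mean of at least 1. The median member stood at 3.85, against 3.02 for all genes. The highest was Plxnb2 at 6.11 ± 0.09 (SD, n = 4), a receptor for class 4 semaphorins, followed by the ephrin-B receptor Ephb4 at 5.86 ± 0.12 and the secreted semaphorin Sema3f at 5.36 ± 0.13. The means of these 3 differed by more than their SDs, whereas the next in order, Efnb1 (5.28 ± 0.12), Ephb3 (5.25 ± 0.14) and Epha3 (5.11 ± 0.13), lay within 1 or 2 SDs of one another.

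**Figure D1:**
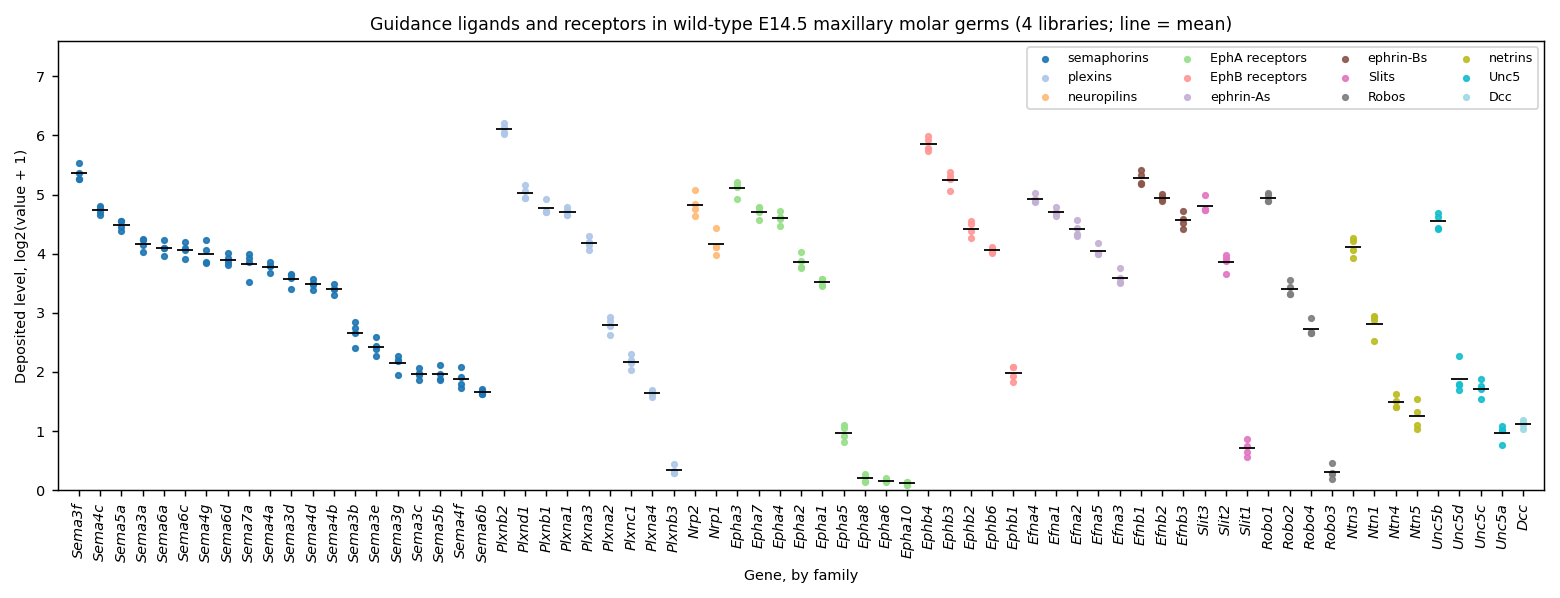
Level of each of the 69 members, on the deposited log2(value + 1) scale, in the 4 wild-type libraries (points) with their mean (line), ordered by family and then by mean. Ephrins all lie above 3.5, whereas the means of 4 EphA receptors lie below 1.

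The families differed in how evenly they were used. All 5 ephrin-As and all 3 ephrin-Bs had means from 3.59 (Efna3) to 5.28 (Efnb1), and all 20 semaphorins were at 1.66 (Sema6b) or more. Among the 9 EphA receptors, 5 stood between 3.52 (Epha1) and 5.11 (Epha3), while Epha5, Epha8, Epha6 and Epha10 stood between 0.97 and 0.12. In the netrin system Ntn3 at 4.11 ± 0.16 was well above Ntn1 at 2.82 ± 0.19, and the repellent receptor Unc5b at 4.54 ± 0.13 was far above Unc5d (1.89), Unc5c (1.72), Dcc (1.12) and Unc5a (0.98). Of the Slits, Slit3 led at 4.80 ± 0.13 and Slit1 stood at 0.71. Robo1 led its family at 4.95 ± 0.07, and Robo3, known from crossing axons of the spinal cord, stood at 0.31. Nrp2 (4.83 ± 0.19) was above Nrp1 (4.16 ± 0.19), and Sema3a stood at 4.17 ± 0.10. Levels of different genes are compared here on the assumption that the values were scaled for gene length.

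The first comparison asked which guidance genes changed with loss of Cilk1. Sema7a and Sema3b fell, and no member rose past the same limits. Sema7a, a semaphorin held at the membrane by a lipid anchor that binds plexin C1 and integrins, fell by 0.89 on the log2 scale, 1.85-fold. Sema3b, a secreted class 3 semaphorin that binds neuropilins, fell by 0.68, 1.61-fold. The 2 called members were 2.90% of the 69, beside 0.215% of all genes called lower and 0.155% called higher. At an unadjusted p under 0.05 with no fold limit, 10 members were lower and 8 higher, beside 11.1% and 9.57% of all genes.

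Sema7a, on chromosome 9, stood at 3.52, 3.93, 3.85 and 3.99 in wild-type replicates 1 to 4 and at 3.05, 2.97, 2.90 and 2.82 in Cilk1-/- replicates 1 to 4. The lowest wild-type library was 0.47 above the highest Cilk1-/- library, and the difference of the means was -0.89 ± 0.13 (SE), with an adjusted p of 0.0151. Sema3b, also on chromosome 9, stood at 2.41, 2.75, 2.84 and 2.66 in wild type and at 2.10, 1.97, 1.82 and 2.02 in Cilk1-/-. These groups did not overlap either, and the difference was -0.68 ± 0.11 with an adjusted p of 0.0164. The targeted gene also lies on chromosome 9, from base 78109192, with Sema7a from base 57940112 and Sema3b from base 107597674. The other members on that chromosome, Ephb1, Sema3f, Plxnb1, Robo3 and Robo4, differed by -0.27 (Ephb1) to 0.06 (Robo3), and none was called. Whether the shared chromosome had a part in the differences of Sema7a and Sema3b was not tested. Within the 4 same-numbered pairs the difference ranged from -1.17 to -0.47 for Sema7a and from -1.02 to -0.31 for Sema3b, so both were lower in 4 of 4. With the replicate number as a block the adjusted p was 0.0846 for Sema7a and 0.134 for Sema3b, and neither was called. Both calls were also lost when wild-type or Cilk1-/- replicate 2, 3 or 4 was left out, at adjusted p between 0.0558 and 0.0600 for Sema7a and between 0.0582 and 0.0682 for Sema3b. Sema7a is among the genes that the study itself listed as lowered on these same samples, so its direction here is not independent evidence.

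Ntn1, the netrin that guides commissural axons, was nearly as far from wild type as Sema7a but with a larger SE. Its SD was 0.19 in wild type, 0.20 in Cilk1-/- and 0.64 in the compound mutant, beside 0.21, 0.09 and 0.31 for Sema7a. The joint fit draws its SE from the spread of all 3 groups. Ntn1 stood at 2.87, 2.93, 2.53 and 2.94 in wild type and at 2.09, 1.91, 2.24 and 1.77 in Cilk1-/-. The 2 groups did not overlap, yet the difference of -0.81 ± 0.23 had an adjusted p of 0.0859 and was not called. Fitted on these 2 genotypes alone, it had an adjusted p of 0.00533, and with compound mutant replicate 1 or 2 left out of the joint fit it had 0.0147 or 0.0304. With the block it had 0.226, and it was not called in the other 9 fits that left out 1 library, where adjusted p ran from 0.0708 to 0.217. It made up, with Sema7a and Sema3b, the 3 members lower by 1.5-fold at an unadjusted p under 0.05 (0.34% of all genes), and 0 were higher by that rule (0.412% of all genes).

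Smaller differences passed the adjusted p without reaching 1.5-fold in 2 more members, which made 3 lower and 1 higher at any fold, beside 1.38% and 1.06% of all genes. Plxna4, a plexin that works with neuropilins as a class 3 semaphorin receptor, was at 1.69, 1.63, 1.58 and 1.66 in wild type and at 2.0, 1.91, 1.90 and 1.90 in Cilk1-/-. Every Cilk1-/- library was above every wild-type one, with a difference of 0.28 ± 0.05 and an adjusted p of 0.0243. Efnb2, an ephrin-B known from arteries and tissue borders, was at 4.89, 4.93, 4.96 and 5.0 against 4.66, 4.81, 4.70 and 4.73. It differed by -0.22 ± 0.04 (adjusted p = 0.0303), and with the block both lost the limit (adjusted p = 0.189 for Plxna4 and 0.182 for Efnb2).

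Counted without any test, 9 members had all Cilk1-/- libraries below all wild-type libraries (13.0%) and 5 had them above (7.25%), beside 10.7% and 10.2% of all genes. The median difference over the members was -0.02, with 36 below 0 and 33 above, against 0.00 over all genes. All 5 EphB receptors lay slightly below 0, between -0.27 (Ephb1) and -0.09 (Ephb6), and none of them had an unadjusted p under 0.05. The neuropilin partner of Sema3b and Sema3f, Nrp2, stood at 4.64 to 5.08 in wild type and 5.02 to 5.37 in Cilk1-/-, a difference of 0.40 ± 0.17 (adjusted p = 0.214) with overlapping groups. Sema3a did not differ at this precision, at 4.04 to 4.25 in wild type and 4.07 to 4.31 in Cilk1-/-, with a 95% interval of the difference from -0.21 to 0.22.

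The second comparison asked which guidance genes changed in the compound mutant. Sema7a was again lower, by 0.79 on the log2 scale or 1.72-fold, and Ntn3, a netrin, fell by 0.69 or 1.61-fold. No member was called higher. The calls made up 2.90% of the members, beside 0.633% of all genes called lower and 0.615% called higher. At an unadjusted p under 0.05 with no fold limit, 15 members were lower and 11 higher, beside 13.8% and 12.9% of all genes. Both mutants were compared with the same wild-type libraries, so the fall of Sema7a in each is not a separate observation of the wild-type level.

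Sema7a stood at 3.05, 3.34 and 2.72 in compound mutant replicates 1 to 3. All 3 were below the lowest wild-type library at 3.52, and the difference was -0.79 ± 0.14 with an adjusted p of 0.0161. Ntn3, on chromosome 17, stood at 4.22, 4.06, 3.92 and 4.26 in wild type, at 3.84, 3.99, 4.04 and 3.74 in Cilk1-/- and at 3.24, 3.73 and 3.31 in the compound mutant. The compound mutant lay below both other groups, at -0.69 ± 0.13 from wild type (adjusted p = 0.0167), while Cilk1-/- overlapped wild type at -0.21 ± 0.12 (adjusted p = 0.340). An exon of Ntn3 shares 89 bases with Tbc1d24 on the same strand, so some reads could belong to either. Tbc1d24 itself differed by -0.16 ± 0.07 between compound mutant and wild type (adjusted p = 0.205).

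Neither call held in every fit. With the block the adjusted p was 0.0946 for Sema7a and 0.108 for Ntn3, and fitted on the 2 genotypes alone it was 0.0954 and 0.0875. The block groups the compound mutants with same-numbered wild-type and Cilk1-/- libraries, with which their deviations correlated only at -0.12 to 0.26. For the compound mutant the block therefore marks no known pairing. Leaving out wild-type replicate 4, the sole wild-type library that shares its protocol text with the compound mutants, gave 0.0580 and 0.0593. Against that library alone the compound mutant mean differed by -0.95 for Sema7a and by -0.84 for Ntn3, and a fit with the library set as a term gave adjusted p of 0.161 and 0.166.

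**Figure D2:**
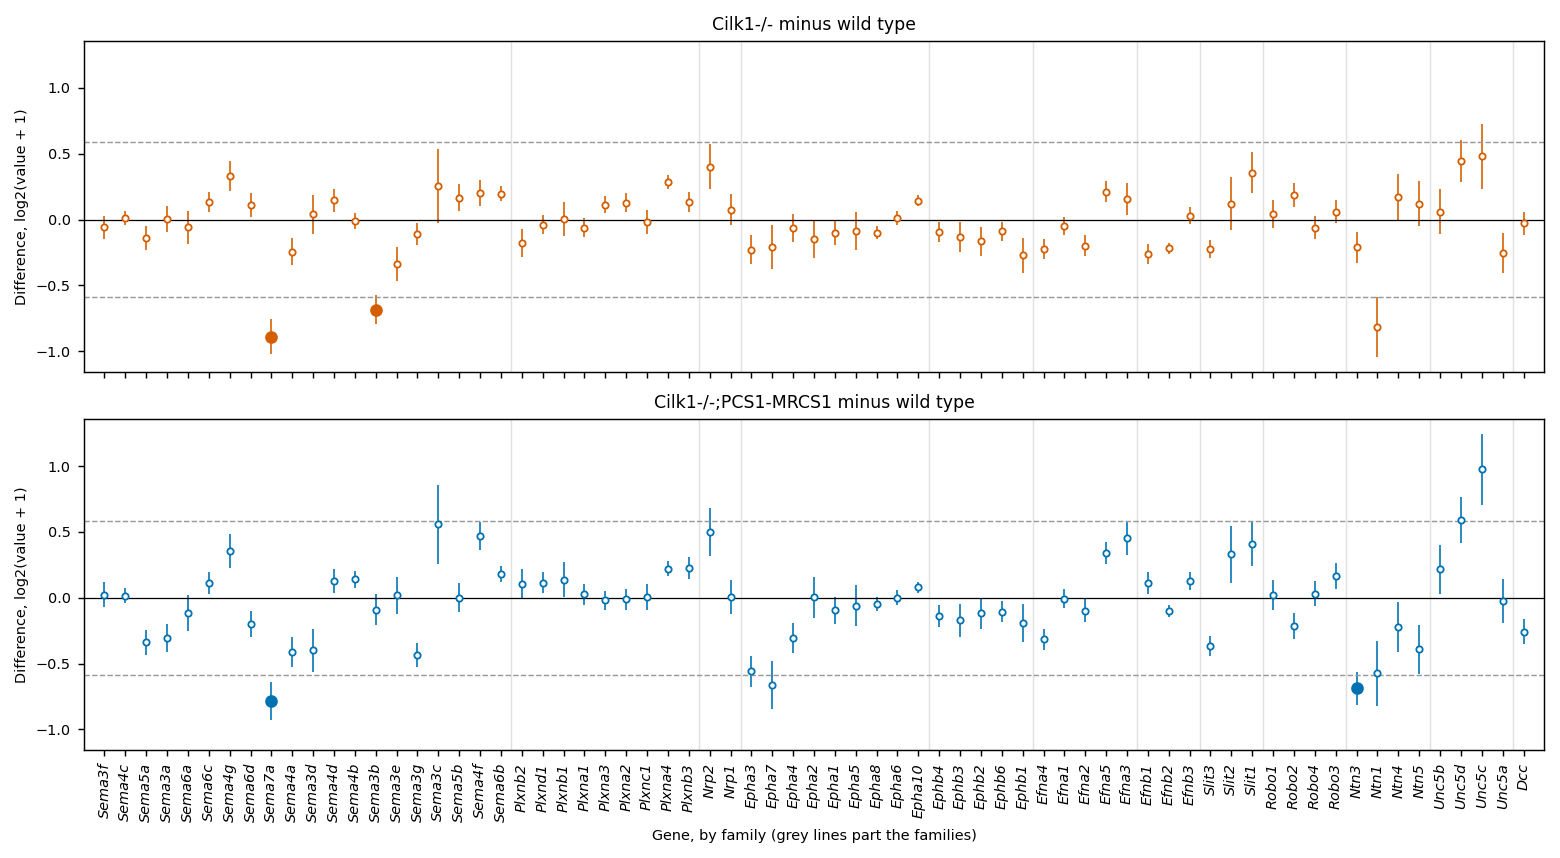
Difference of Cilk1-/- (upper panel) and of the compound mutant (lower panel) from wild type for each of the 69 members, on the log2(value + 1) scale with its SE. Filled points are called members, dashed lines mark 1.5-fold, and Sema7a is the only one filled in both panels.

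Without the fold limit, 9 members passed the adjusted p, 6 lower and 3 higher, beside 3.75% and 2.82% of all genes. Next to Sema7a and Ntn3 the lower ones were Epha3 (-0.56 ± 0.12, adjusted p = 0.0252), an ephrin-A receptor, Sema3g (-0.43 ± 0.09, 0.0239), a secreted semaphorin, Slit3 (-0.37 ± 0.08, 0.0252) and the ephrin Efna4 (-0.32 ± 0.08, 0.0440). All 4 had every compound mutant library below every wild-type library. The higher ones were the membrane semaphorin Sema4f (0.47 ± 0.11, 0.0320), the ephrin Efna5 (0.34 ± 0.08, 0.0413) and Plxna4 (0.22 ± 0.06, 0.0437), again without overlap. With the block none of the 9 had an adjusted p under 0.05, and the lowest was that of Sema7a.

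In all, 8 members lay wholly below wild type (11.6%) and 6 wholly above (8.70%), beside 9.05% and 8.92% of all genes. The median difference was 0.00 over the members and 0.00 over all genes. All 4 netrins were below 0, from -0.69 (Ntn3) to -0.22 (Ntn4), and 2 of them had an unadjusted p under 0.05. The 5 EphB receptors were again between -0.19 and -0.11, with 0 at that limit. These directions stayed under quantile normalization, median centring and a smaller pseudocount, which reuse the same libraries and are not separate evidence. Without compound mutant replicate 3, Ephb2 turned to 0.03 and Ephb3 stood at -0.01.

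Unc5c, Unc5d and Epha7 differed by more than 1.5-fold at an unadjusted p under 0.05 but were not called, and their compound mutant libraries were far apart. With Sema7a and Ntn3 that rule took 3 members lower and 2 higher, beside 0.943% and 2.04% of all genes. Unc5c, a repellent netrin receptor, was at 1.54 to 1.87 in wild type, at 2.0 to 2.33 in Cilk1-/- and at 2.96, 1.85 and 3.28 in compound mutant replicates 1 to 3. Replicates 1 and 3 were above all 9 other libraries and replicate 2 was inside the wild-type range, so the difference of 0.98 ± 0.27 had an adjusted p of 0.0553. Unc5d was at 2.27, 1.70, 1.80 and 1.78 in wild type and at 2.35, 2.21 and 2.88 in the compound mutant, a difference of 0.59 ± 0.18 (adjusted p = 0.0681), with wild-type replicate 1 inside the mutant range. Cilk1-/- libraries were at 2.10 to 2.46, and without wild-type replicate 1 Unc5d was called in the compound mutant.

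Epha7, an ephrin-A receptor, went the other way. It stood at 4.71, 4.79, 4.56 and 4.78 in wild type, at 4.39 to 4.62 in Cilk1-/- and at 3.58, 4.59 and 3.98 in the compound mutant. Compound mutant replicate 2 again matched wild type while the other two were low, and the difference was -0.66 ± 0.18 (adjusted p = 0.0558). Without compound mutant replicate 2, Unc5c (1.40, adjusted p = 0.000636), Unc5d (0.73, 0.0271) and Epha7 (-0.93, 0.00144) were all called, and so were Ntn5 (-0.60), Slit1 (0.62) and Slit2 (0.62). Without replicate 1 instead, the adjusted p of Epha7 was 0.116 and that of Unc5c 0.133. Adjusted p also ran lower without replicate 2, where Sema4a at an unadjusted p of 0.00711 had 0.0415. Without replicate 1, Sema4f at an unadjusted p of 0.00453 had 0.0674. More of all genes thus passed without replicate 2 than without replicate 1, and their share was not counted.

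Ntn1 was at 2.94, 1.67 and 2.13 in the compound mutant. Replicate 1 equalled the highest wild-type libraries and the other two fell in or below the Cilk1-/- range of 1.77 to 2.24, so the difference was -0.57 ± 0.25 (adjusted p = 0.172). Without compound mutant replicate 1 it was -0.92 with an adjusted p of 0.0196, past both limits. Sema3a was at 3.93, 4.07 and 3.58, against 4.04 to 4.25 in wild type, a difference of -0.31 ± 0.11 (adjusted p = 0.105).

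**Figure D3:**
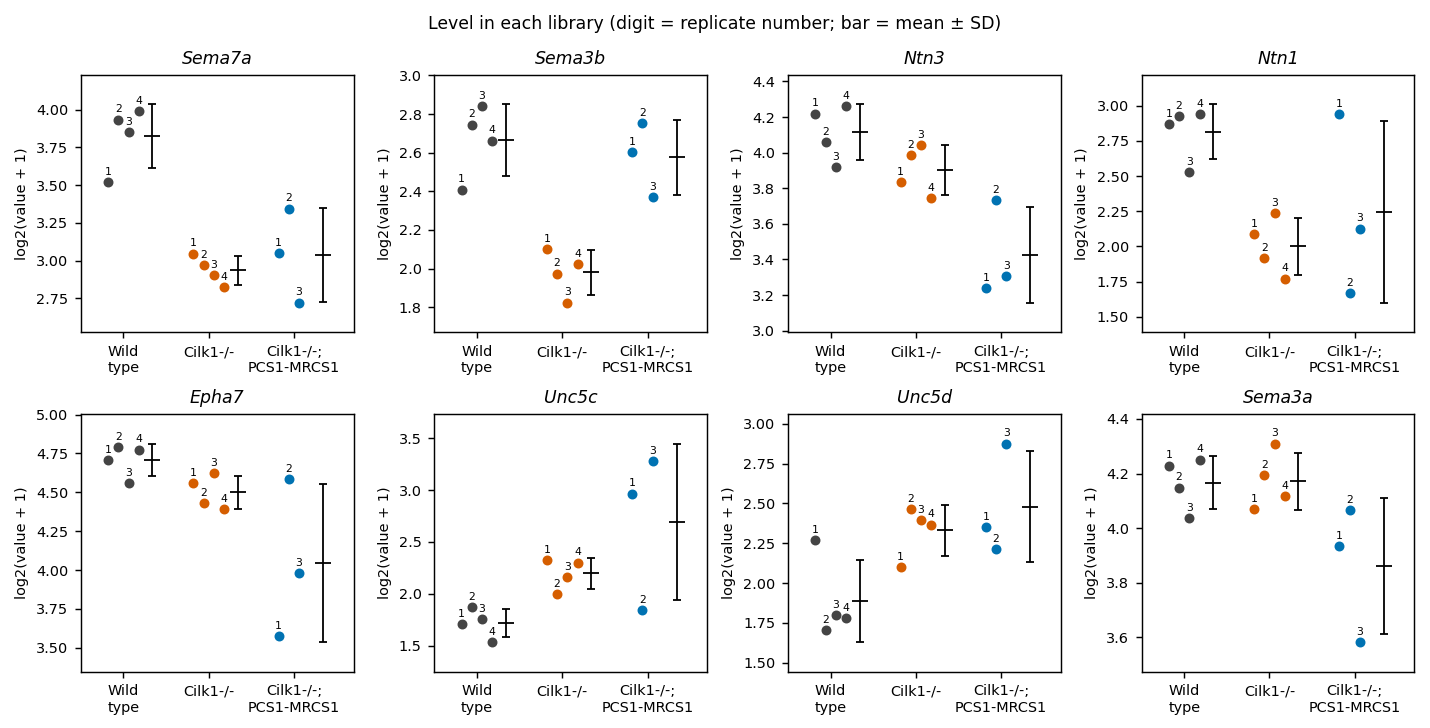
Level of 8 members in each library on the log2(value + 1) scale, with the replicate number beside each point and the mean ± SD of each group as a bar. For Sema7a and Sema3b no Cilk1-/- point reaches the wild-type range, while in Ntn1, Epha7 and Unc5c 1 compound mutant library lies among the wild-type points.

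The members with the highest wild-type level of each family were followed library by library, wild type first, then Cilk1-/-, then the compound mutant. Epha3 was at 5.22, 5.13, 4.93 and 5.17, then at 4.83, 4.85, 5.02 and 4.82, and then at 4.84, 4.55 and 4.27. Slit3 was at 4.73, 4.75, 4.74 and 4.99, then at 4.62, 4.68, 4.58 and 4.44, and then at 4.38, 4.41 and 4.53. Efna4 was at 5.03, 4.93, 4.87 and 4.89, then at 4.63, 4.74, 4.76 and 4.69, and then at 4.46, 4.83 and 4.55. In Slit3 and Efna4 both mutants lay wholly below wild type, while Epha3 in Cilk1-/- overlapped it through replicate 3, and the Cilk1-/- differences of these 3 genes, -0.23 to -0.22, had adjusted p between 0.116 and 0.267.

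Ephb4 was at 5.99, 5.78, 5.74 and 5.93, then at 5.68, 5.85, 5.84 and 5.69, and then at 5.67, 5.87 and 5.63. Sema3f was at 5.53, 5.26, 5.27 and 5.37, then at 5.15, 5.37, 5.39 and 5.28, and then at 5.53, 5.42 and 5.19. In both genes all groups overlapped, and neither was called in any comparison. Plxnb2 was at 6.21, 6.06, 6.02 and 6.15, then at 5.83, 6.0, 5.99 and 5.91, with every Cilk1-/- library below wild type at a difference of -0.18 (adjusted p = 0.367).

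The Robo and netrin receptors that led their families also overlapped between wild type and Cilk1-/-. Robo1 was at 5.02, 4.90, 4.99 and 4.88, then at 4.87, 5.04, 4.94 and 5.09. Unc5b was at 4.62, 4.42, 4.69 and 4.44, then at 4.35, 4.79, 4.51 and 4.76. Dcc, the sole member of its family, was at 1.16, 1.11, 1.03 and 1.19, then at 1.14, 1.08, 1.15 and 0.99. Adjusted p was between 0.882 and 0.897 for these 3 genes.

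The third comparison asked what the PCS1-MRCS1 deletion added on the Cilk1-/- background. Sema3b was higher in the compound mutant than in Cilk1-/-, by 0.59 or 1.51-fold, and no member was called lower. The single call stood beside 0.155% of all genes called higher and 0.388% called lower. At an unadjusted p under 0.05 with no fold limit, 10 members were lower and 8 higher, beside 12.3% and 10.9% of all genes. Sema3b was at 2.60, 2.75 and 2.37 in the compound mutant, above the Cilk1-/- range of 1.82 to 2.10 and inside the wild-type range of 2.41 to 2.84 but for replicate 3, with a difference of 0.59 ± 0.12 and an adjusted p of 0.0318. Its compound mutant mean differed from wild type by -0.09, with a 95% interval from -0.35 to 0.17.

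That call rested on small margins. It was lost with the block (adjusted p = 0.191), in a fit of the 2 genotypes alone (0.117), with the library set as a term (0.282) and under quantile normalization, where the difference of 0.58 missed 1.5-fold. Leaving out compound mutant replicate 1, Cilk1-/- replicate 2, 3 or 4, or wild-type replicate 2 or 4 gave adjusted p between 0.0539 and 0.0918, and leaving out compound mutant replicate 2 lowered the difference to 0.51.

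Sema7a differed by 0.10 between the mutants, with a 95% interval from -0.21 to 0.42, so a further fall of more than 0.21 lay outside the interval. Ntn3 was lower by 0.48 ± 0.13 without overlap (adjusted p = 0.0652). Efnb1, an X-linked ephrin-B, was at 4.90 to 5.15 in Cilk1-/- and at 5.46, 5.26 and 5.45 in the compound mutant, a difference of 0.38 ± 0.08 (adjusted p = 0.0402), which reached 0.224 with the block. Efnb1 and Sema3b were the 2 members higher at an adjusted p under 0.05 with any fold, and 0 were lower, beside 1.18% and 2.15% of all genes. In wild type it was at 5.18 to 5.42, so the compound mutant overlapped wild type while Cilk1-/- lay below it. Counted over the members, 5 lay wholly below Cilk1-/- (7.25%) and 4 wholly above (5.80%), beside 9.3% and 7.74% of all genes.

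The members varied more among compound mutant libraries than among the others. Their median SD was 0.11 in wild type, 0.11 in Cilk1-/- and 0.22 in the compound mutant, and 61 of the 69 had a larger SD in the compound mutant than in wild type (88.4%), beside 79.2% of all genes. Compound mutant replicate 1 was the highest of all 11 libraries for 18 members (26.1%), beside 22.9% of all genes, and replicate 3 was the highest for 14 and the lowest for 14 (20.3% each), beside 13.9% and 17.1%.

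**Figure D4:**
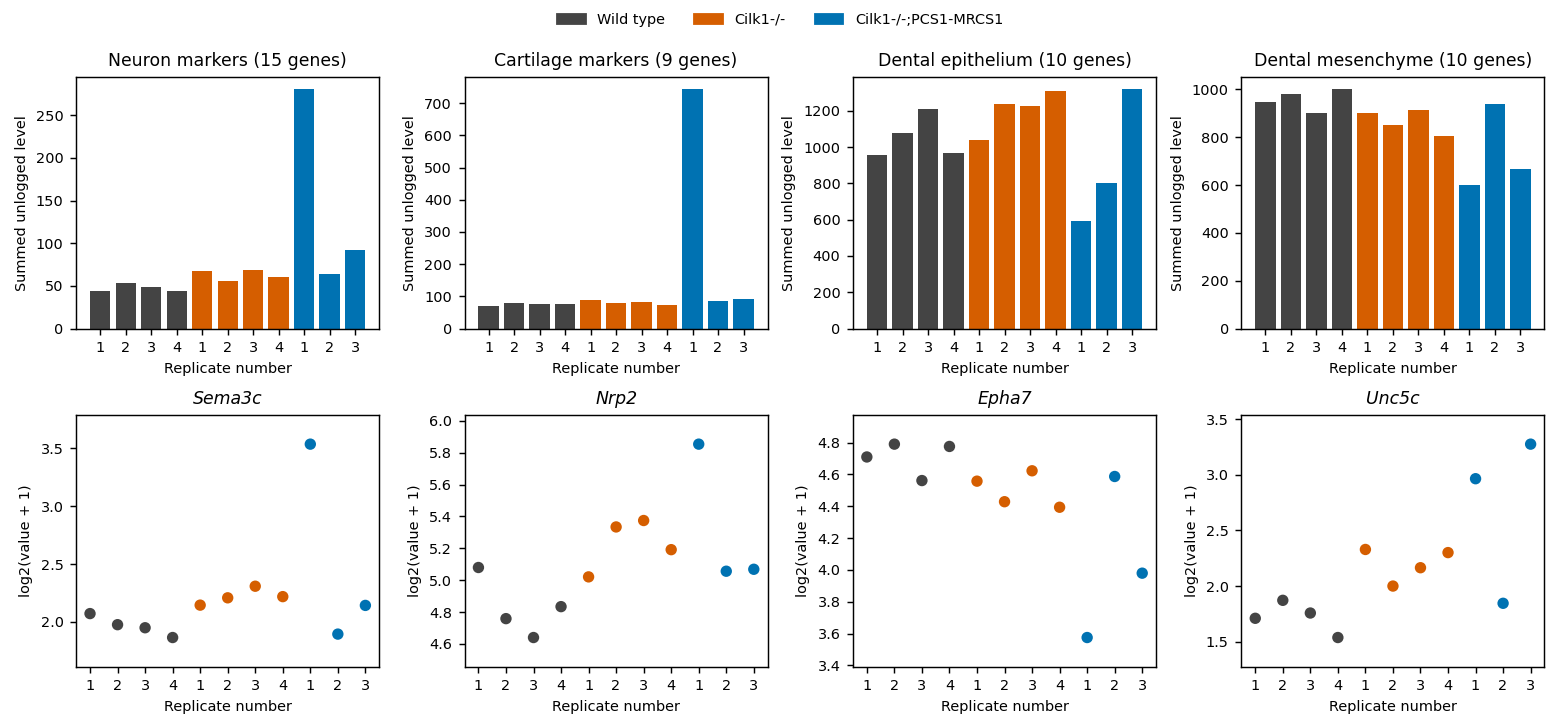
Upper row, summed unlogged level of the markers of 4 tissues in each library; lower row, the log2(value + 1) level of 4 members in the same libraries. Compound mutant replicate 1 holds the highest neuron and cartilage sums (281 and 744) and the highest Sema3c and Nrp2.

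Compound mutant replicate 1 also held more transcript of neuron, cartilage and Schwann cell markers than any other library. The summed unlogged level of 15 neuron markers was 281 there, against 43.9 to 54.0 in wild type, 56.1 to 69.0 in Cilk1-/- and 63.6 and 92.0 in the other two compound mutant libraries, and 13 of the 15 were highest in it. Stmn3 and Prph were at or below 0 in at least 1 library, and only 3 of the 15 had a wild-type mean of 1 or more. The sum of 9 cartilage markers was 744, against 68.7 to 92.6 in the other 10 libraries. That of 10 Schwann cell markers was 58.3, against 24.4 to 27.4 in wild type, 29.3 to 32.4 in Cilk1-/- and 26.9 and 29.0 in the other compound mutants. Compound mutant replicate 1 in turn had the lowest sums for dental epithelium (591 against 801 to 1320) and for dental mesenchyme (599 against 666 to 1001).

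The compound mutant as a group also differed from wild type in these markers. At an unadjusted p under 0.05, 12 of the 15 neuron markers were higher and 1 lower, 5 of the 9 cartilage markers were higher, and 7 of the 10 dental mesenchyme markers were lower, beside 12.9% of all genes higher and 13.8% lower. Tubb3 and Isl1 were the 2 neuron markers called higher. The part of this shift in the differences of Sema7a and Ntn3 was not tested. In Cilk1-/- every neuron and Schwann cell sum lay above every wild-type sum. At an unadjusted p under 0.05, 0 neuron markers were higher and 1 lower there, beside 9.57% and 11.1% of all genes. Of the Schwann cell markers 1 was higher and 0 lower. The part of these sums in the Cilk1-/- differences was not tested either.

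Replicate 3 had a low mesenchyme sum of 666 and the highest epithelium sum of 1320, and its erythroid sum was 1059 against 2874 to 4165 in the other libraries. Skeletal muscle sums were 11.8 to 35.4 in wild type, 23.2 to 64.6 in Cilk1-/- and 9.12 to 9.98 in the compound mutant, without overlap of the last with the others. Sums of endothelium (125 to 155), macrophage (41.7 to 64.8) and bone markers (621 to 1132) overlapped between all groups. In bulk tissue, fewer cells of a type cannot be told apart from less RNA per cell.

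Sema3c, a secreted semaphorin, moved with that library. It was at 3.54 in compound mutant replicate 1, 1.23 above the highest of the other 10 libraries, which ran from 1.87 to 2.31. Nrp2 was at 5.85 there and at 4.64 to 5.37 elsewhere, Efna3 at 4.37 against 3.51 to 3.97, and Plxnb2 at 6.56 against 5.83 to 6.21. Without that library Sema3c differed from wild type by 0.05 and Nrp2 by 0.23. The part of the neuron, cartilage and Schwann cell transcripts in these levels, and in those of Ntn1 and Epha7, was not tested. Sema7a and Ntn3 were also called without that library, at -0.79 (adjusted p = 0.0317) and -0.59 (0.0375), and so were Epha3 at -0.70 (0.00777) and Ntn1.

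Compound mutant replicate 3 stood out in other members. It held the highest level of Slit2 (4.82 against 3.61 to 4.12), Unc5b (5.29 against 4.35 to 4.79), Unc5c, Unc5d and Robo1 (5.31 against 4.79 to 5.09). Sema3d (2.68 against 3.40 to 3.78) and Dcc (0.61 against 0.95 to 1.19) were lowest in it. Whether the tissue balance of that library had a part in these levels was not tested.

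None of the 19 guidance partners, such as the adhesion molecules and Flrt proteins that bind Unc5 receptors, was called in any comparison by limma. At an unadjusted p under 0.05, 0 of them differed in Cilk1-/-, 6 were lower and 0 higher in the compound mutant against wild type, beside 13.8% and 12.9% of all genes, and 6 were lower and 1 higher against Cilk1-/-, beside 12.3% and 10.9%. Only Flrt3 passed the adjusted p without the fold limit, lower in the compound mutant than in wild type (-0.23 ± 0.05, adjusted p = 0.0278) and than in Cilk1-/- (-0.21 ± 0.05, 0.0487), and with the block neither passed (0.159 and 0.240). None of the 38 genes that carry the signal inside the cell was called either, and at an unadjusted p under 0.05 there were 4 lower and 1 higher in Cilk1-/-, beside 11.1% and 9.57% of all genes. In the compound mutant 6 were lower and 9 higher against wild type, beside 13.8% and 12.9%, and 5 were lower and 5 higher against Cilk1-/-, beside 12.3% and 10.9%.

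Within that signalling list Mical1 and Mical2, enzymes that oxidize actin below plexins, passed the adjusted p below 1.5-fold, and Mical3 did not pass. Of the 38 genes, 2 were lower and 0 higher by that rule in Cilk1-/-, beside 1.38% and 1.06% of all genes. The compound mutant had 1 lower and 1 higher against wild type (3.75% and 2.82% of all genes). Against Cilk1-/- it had 0 lower and 1 higher (2.15% and 1.18%). Mical2 passed only in Cilk1-/-, at 2.91 to 3.17 in wild type and 2.41 to 2.62 in Cilk1-/- (-0.51 ± 0.08, adjusted p = 0.0174). Mical1 was lower in both Cilk1-/- (-0.25 ± 0.05, 0.0374) and the compound mutant (-0.29 ± 0.06, 0.0188). Arhgef11, an exchange factor bound by B-type plexins, was higher in the compound mutant than in wild type (0.14 ± 0.04, 0.0442), and the ephrin exchange factor Ngef was higher than in Cilk1-/- (0.44 ± 0.09, 0.0330). With the block none of these differences passed, the lowest adjusted p being that of Mical1 in the compound mutant, 0.136.

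Among 15 neurotrophic factors and receptors, Ngfr, the low-affinity receptor for neurotrophins, was called lower in Cilk1-/-. It stood at 4.85, 4.62, 4.58 and 4.61 in wild type and at 3.83, 3.96, 3.95 and 3.93 in Cilk1-/-, with no overlap. The difference was -0.75 ± 0.13 (adjusted p = 0.0193), and in the compound mutant, at 3.76, 4.40 and 4.40, it was -0.48 ± 0.14 (adjusted p = 0.0634). With the block the lowest adjusted p among these genes was that of Ngfr in Cilk1-/-, 0.134, so none was called in that fit.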

How the data were processed

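The deposited values were log2 of a normalized expression value plus 1. The authors mapped paired-end poly-A reads to mm10 (HISAT2 2.0.5), counted reads per gene (featureCounts 1.5.0-p3) and computed FPKM. Some deposited log2 values lie under 0, so a later adjustment was made, which is not given in the sources used here. As no counts were used, a count model could not be fitted and the depth is unknown.

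All 16755 genes were fitted together in limma 3.58.1 (R 4.3.3; lmFit, eBayes with trend and robust options), with 3 genotypes over 11 libraries, and p-values were adjusted by Benjamini-Hochberg over all genes. A call needed an adjusted p under 0.05 and a difference of at least 1.5-fold. Libraries fell into 2 sets by protocol: wild-type and Cilk1-/- replicates 1 to 3, and the rest. The labels do not say what a replicate number marks. Same-numbered wild-type and Cilk1-/- libraries deviated oppositely (correlations -0.74, -0.89, -0.85 and -0.79), and the block by number was an alternative. That block also held the compound mutants by number, though their deviations correlated only at -0.12 to 0.26 with same-numbered libraries. Other alternatives were the set as a term, 1 set alone, the 2 compared genotypes alone, no trend or robust option, quantile normalization, a mean filter of 1, centring on the median, a pseudocount of 0.1 and each library left out. The fit was also run on simulated data with independent libraries and changes of 1.5 on the log2 scale, larger than those of the members. That run therefore does not cover the dependence between same-numbered libraries or smaller changes.

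Members and lists (guidance partners, signalling genes, neurotrophic genes, tissue markers) were chosen with earlier results of these data known. Described library by library were members called, members at an unadjusted p under 0.05 and 1.5-fold against wild type, the highest of each family, and Sema3a; some members that moved with 1 library were named after their values were seen. Marker levels are sums of 2 to the deposited value minus 1. Positions are from GENCODE vM21 and promoters from RefSeq (GRCm38.p6). Figures used matplotlib 3.10.9.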

Additional observations from a re-analysis of the deposited data

Results flagged for a closer look

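Among the 138 groups of 4 libraries (69 members in wild type and in Cilk1-/-), 9 held a library whose gap to its nearest neighbour passed Dixon's 95% limit as a share of the group's range, and chance alone gives about 1 group in 20. In 4 of them wild-type replicate 1 was the highest, for Plxnb1 (4.93, others 4.70 to 4.73), Efna5 (4.18, others 4.0 to 4.01), Robo4 (2.91, others 2.65 to 2.68) and Unc5d (2.27, others 1.70 to 1.80). Cilk1-/- replicate 1 was the lowest for Plxnb1 (4.54, others 4.82 to 4.87) and Efna5 (4.18, others 4.28 to 4.29), and the highest for Plxna4 (2.0, others 1.90 to 1.91). Same-numbered libraries deviated oppositely, so the entries of Plxnb1 and Efna5 in both genotypes are not separate observations. The share of such groups over all genes was not counted. Cilk1-/- replicate 3 was the highest for Epha3 (5.02, others 4.82 to 4.85), and wild-type replicate 4 the highest for Slit3 (4.99, others 4.73 to 4.75).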

How the results depend on the processing

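No difference described as called or as past 1.5-fold at an unadjusted p under 0.05 changed sign in any of the fits run. Against wild type, 2 members were called lower in Cilk1-/-. That count was 0 with the replicate block, 0 with the block and the compound mutants placed with pair 4 (a fit added once the data had been seen), and 1 with libraries of set 1 only. The count called higher, 0, became 1 at an adjusted p under 0.05 with no fold limit. In the compound mutant, 2 were called lower, against 0 in a fit of the 2 genotypes alone, 0 with the replicate block, 0 with the library set as a term, 0 within set 2, 0 with the block at pair 4 and 6 with no fold limit. The count called higher, 0, became 2 with a pseudocount of 0.1 (Sema4f and Unc5c), 2 at an unadjusted p and 3 with no fold limit. Between the mutants, 1 was called higher, against 0 with the 2 genotypes alone, 0 with the block, 0 with the set as a term, 0 within set 2, 0 under quantile normalization, 0 with the block at pair 4 and 2 with no fold limit. Leaving out each library in turn gave 0 to 3 called lower in Cilk1-/- (3 without compound mutant replicate 1 or 2, which adds Ntn1), 0 to 4 lower and 0 to 4 higher in the compound mutant, and 0 to 3 lower and 0 to 1 higher between the mutants. Set 2 has 1 wild-type and 1 Cilk1-/- library, each assumed to vary like the compound mutants. Where a call was lost, the cause was not tested. Shares of all genes were counted in the main fit only, so member counts in the other fits have no such share beside them. Depth and what the later adjustment did to the values are unknown.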

Other observations

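Ligands and receptors were not spread alike among the differences between Cilk1-/- and wild type at an unadjusted p under 0.05. This count was made after the values were seen and was not tested. By sign alone there was no such split, as 17 of the 35 ligands and 19 of the 34 receptors lay below 0. Their median differences were 0.01 and -0.03. Of the 35 ligands, 10 were lower and 4 higher at an unadjusted p under 0.05. Of the 34 receptors, 0 were lower and 4 were higher, beside 11.1% of all genes lower and 9.57% higher. The 10 lower ligands were Sema7a, Sema3b, Sema3e, Sema4a, Efna2, Efna4, Efnb1, Efnb2, Ntn1 and Slit3, and the 4 higher receptors were Nrp2, Plxna4, Unc5d and Epha10. With the replicate number as a block the counts were 9 lower and 3 higher among ligands, and 0 lower and 4 higher among receptors. The shares of all genes in the block fit were not counted, so these counts have no background beside them. In the compound mutant 4 receptors were lower (Epha3, Epha4, Epha7 and Dcc) and 5 higher, and 11 ligands were lower and 6 higher, beside 13.8% of all genes lower and 12.9% higher.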
